A study of Rattus norvegicus with 24 samples.

Results

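Expression of 8 genes that carry glucose into and out of its hepatic phosphate pool was followed in the liver of 24 male Zucker rats. The genes were taken by symbol from the 23188 transcripts of the array: Slc2a2, Gckr, Pfkfb1, Pklr, Khk, Pck1, Fbp1 and G6pc, each represented by 1 probe set without a cross-hybridisation mark. Obese rats were homozygous (fa/fa) and lean rats heterozygous (fa/+) for the fatty allele of the leptin receptor gene, so the lean rats carried 1 copy of it too. Rats were 25 weeks old and received the same basal diet for 4 weeks, either unsupplemented (lean, LC; obese, OC) or with ecdysterone added at 0.5 g per kg (lean, LE; obese, OE). Ecdysterone is a steroid hormone of insects that plants also make. There were 6 rats, hence 6 arrays, per group, and the rats had not been fasted before death. They were housed in pairs, but the labels do not name the cages, so cage mates could not be modelled.

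In the hepatocyte, glucose enters through the transporter encoded by Slc2a2 and is phosphorylated. Glycolysis then breaks the sugar phosphate down to pyruvate, and gluconeogenesis rebuilds glucose from lactate, amino acids and glycerol. Insulin and dietary carbohydrate are known to favour the first direction, and glucagon and fasting the second, largely through transcription of the enzymes described here. Gckr encodes the regulatory protein that binds and holds back the glucose-phosphorylating enzyme of hepatocytes. Pfkfb1 encodes the liver enzyme that makes and degrades fructose 2,6-bisphosphate, Pklr the pyruvate kinase of liver and red blood cells, and Khk the kinase that traps fructose. Pck1 encodes cytosolic phosphoenolpyruvate carboxykinase, Fbp1 the fructose-1,6-bisphosphatase, and G6pc the catalytic subunit of glucose-6-phosphatase, which releases free glucose.

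Of the 8 genes, Pck1 and G6pc, which encode a gluconeogenic enzyme each, were lower in obese than in lean rats, and no gene passed the threshold for ecdysterone. The promoter sequences of both are shown because the genotype difference rests on them. Those of Slc2a2 and Gckr are shown because these genes varied in opposite directions from rat to rat. The sequences come from RefSeq (assembly GRCr8), which matched all 8 genes by symbol or accession and lists G6pc as G6pc1. Each stretch covers the 250 bases before the start listed for the promoter, on the gene's strand, 5′ to 3′. It lies at chr3:182348322-182348571 (plus strand) for Pck1, chr10:86807409-86807658 (plus strand) for G6pc, chr2:113540120-113540369 (plus strand) for Slc2a2 and chr6:30795628-30795877 (minus strand) for Gckr. For Slc2a2 the stretch lies inside the annotated gene, which begins at chr2:113537884, so the start used there is not the outermost one. Capitals mark matches to the motifs named in the next paragraph.
Pck1: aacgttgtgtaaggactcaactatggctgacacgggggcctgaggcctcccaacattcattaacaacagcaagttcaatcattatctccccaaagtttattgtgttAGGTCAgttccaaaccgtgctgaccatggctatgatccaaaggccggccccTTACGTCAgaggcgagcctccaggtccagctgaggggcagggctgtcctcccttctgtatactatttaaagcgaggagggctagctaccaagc
G6pc: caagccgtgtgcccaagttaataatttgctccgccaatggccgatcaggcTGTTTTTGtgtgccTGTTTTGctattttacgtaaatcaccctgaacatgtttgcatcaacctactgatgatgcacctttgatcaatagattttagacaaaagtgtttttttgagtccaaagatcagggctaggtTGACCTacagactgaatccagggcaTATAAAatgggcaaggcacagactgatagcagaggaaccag
Slc2a2: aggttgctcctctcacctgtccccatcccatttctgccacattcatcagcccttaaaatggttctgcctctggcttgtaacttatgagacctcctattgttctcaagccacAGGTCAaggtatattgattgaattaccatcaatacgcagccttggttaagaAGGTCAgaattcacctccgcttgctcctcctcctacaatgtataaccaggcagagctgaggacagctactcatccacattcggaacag
Gckr: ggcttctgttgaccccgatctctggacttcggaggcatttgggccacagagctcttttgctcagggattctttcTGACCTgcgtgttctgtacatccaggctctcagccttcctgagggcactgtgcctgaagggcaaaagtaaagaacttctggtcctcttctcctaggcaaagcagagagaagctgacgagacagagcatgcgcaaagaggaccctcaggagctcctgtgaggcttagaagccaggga

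The motifs were searched on both strands, with positions counted back from the start. TTACGTCA, the cAMP response element known from the Pck1 gene, began at −93 in Pck1 and occurred in 0.819% of the 27457 promoters of the same length. Since this element was already known from Pck1, its presence there was settled before the search and is no new result. TGTTTTTG, a form of the insulin response sequence, began at −200 in G6pc (1.45% of promoters), and the shorter TGTTTTG began at −186 (5.46%). AGGTCA, the core recognised by many nuclear receptors, was found in 4 of the 8 genes, against 13.7% of all promoters. It began at −144 in Pck1, at −66 in G6pc, at −139 and −88 in Slc2a2 and at −176 in Gckr, on the minus strand in G6pc and Gckr. TATAAA, the TATA box, began at −41 in G6pc (13.1% of promoters). None of the 8 genes held CACGTG, the E-box bound by the clock activators (5.79% of promoters), in this window. Nor did any hold TTATGTAA, a form of the D-box bound by Dbp and Tef (0.816%). Only these exact letters were searched, and the similar TTACGTAA in the G6pc stretch was not counted. A match is a description of letters, not evidence of a bound site.

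Signals are log2 values, where 1 unit is a doubling. Array medians lay between 6.51 and 6.61, and every array had a mean correlation of 0.983 to 0.988 with the others of its group, so no library stood apart over all transcripts. Across the array signals ran from 2.69 to 19.93, and 1523 transcripts of smell, taste and pheromone receptors had a median of 4.83 with a 95th percentile of 6.37. The lowest signal of any of the 8 genes on any array was 8.19, above that percentile. The 8 markers of hepatocytes had a summed signal of 22.4 to 22.53 over the groups, with 1 of 8 higher in obese rats. Of these, Alb and Serpina1 averaged 19.9 and Ttr and Tf 19.8, next to the highest signal of the arrays, so the sum shows the tissue but not differences in the share of hepatocytes. The summed signal of 8 markers of stellate cells and myofibroblasts was 13.35 to 13.97 in lean rats and 14.26 to 15.29 in obese rats. Sparc, with a mean signal of 13.8, leads that sum, and 4 of the 8 were higher in obese rats. These marker counts are of the genotype comparison averaged over both diets described below, in which 6.52% of all transcripts passed in either direction. In whole liver, fewer cells of a type and less RNA per cell cannot be told apart.

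The first question was whether genotype altered these genes. Differences were tested with limma in 1 model of the 4 groups, with p-values adjusted over all 23188 transcripts and a threshold of 0.05. The genotype difference averaged over both diets uses all 24 rats, and 2 of the 8 genes passed in it, both lower in obese rats, where 6.52% of all transcripts passed in either direction and 2.95% as lower. At an unadjusted p under 0.05 there were 5 of 8, against 17.8% of all transcripts. The comparisons OC vs. LC and OE vs. LE share no arrays, and the averaged difference is built from both.

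**Figure D1:**
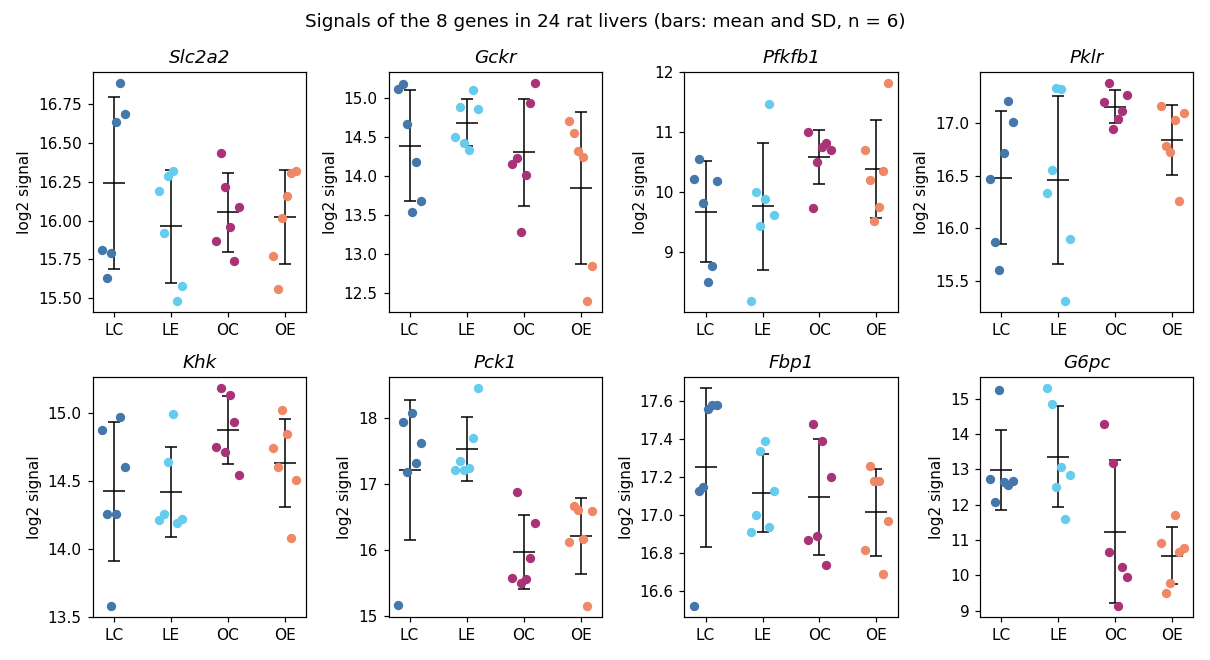
Log2 signal of each of the 8 genes (vertical axis, a separate scale for each gene) in every rat, by group (horizontal axis); each point is 1 array and the bars give the group mean and SD (n = 6). Pck1 and G6pc lie lower on average in OC and OE than in LC and LE. A single rat lies away from its group for Pck1 in LC and in OE (low) and for G6pc in LC (high). For G6pc, LE replicates 7 and 8 and OC replicates 13 and 15 also lie high.

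Pck1, which turns oxaloacetate into phosphoenolpyruvate at the entry to gluconeogenesis, had a lowest, median and highest signal of 15.16, 17.47 and 18.08 in LC, and of 17.22, 17.29 and 18.46 in LE. In obese rats the corresponding values were 15.49, 15.72 and 16.88 in OC, and 15.14, 16.38 and 16.66 in OE. All 12 obese rats thus lay below 11 of the 12 lean rats, the exception being LC replicate 1 with the lowest LC value. Averaged over both diets, Pck1 fell by 1.29 on the log2 scale in obese rats (SE 0.25, 95% interval −1.8 to −0.77, 2.44-fold lower, limma adjusted p = 0.00114). The LE and OE rats did not overlap, as was the case for 1.76% of all transcripts. On the ecdysterone diet the difference was −1.32 (SE 0.36, limma adjusted p = 0.048, two-sided exact permutation p = 0.00216, the smallest p that 6 against 6 rats allow). On the control diet it was −1.26 (SE 0.36, limma adjusted p = 0.0559, exact permutation p = 0.0368), and leaving out 1 array moved it between −1.67 (adjusted p = 0.000384), without LC replicate 1, and −1.08 (adjusted p = 0.156), without LC replicate 4. It also passed without OC replicate 14 (−1.44, limma adjusted p = 0.0284). The call in OE vs. LE was lost whichever of its 12 arrays was left out (limma adjusted p = 0.0518 to 0.14), whereas the averaged difference passed in every one of the 24 fits that left out 1 array.

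G6pc, whose product hydrolyses glucose 6-phosphate in the last step of both gluconeogenesis and glycogen breakdown, had a lowest, median and highest signal of 12.08, 12.65 and 15.25 in LC, and of 11.6, 12.95 and 15.3 in LE. In OC the values were 9.12, 10.45 and 14.27, and in OE 9.5, 10.73 and 11.72. The groups overlapped: OC replicates 13 and 15, at 14.27 and 13.19, lay among the lean rats, while the other 4 OC rats were below all LC rats, and 5 of the 6 OE rats were below all LE rats. Averaged over both diets, G6pc fell by 2.27 on the log2 scale in obese rats (SE 0.49, 95% interval −3.28 to −1.27, 4.83-fold lower, limma adjusted p = 0.003). The difference was −2.8 in OE vs. LE (SE 0.69, limma adjusted p = 0.0266, exact permutation p = 0.00433) and −1.75 in OC vs. LC (SE 0.69, limma adjusted p = 0.237, exact permutation p = 0.0996). Leaving out 1 array moved the latter between −2.36 (limma adjusted p = 0.0444), without OC replicate 13, and −1.3 (adjusted p = 0.472), without LC replicate 3. The difference between both estimates was −1.04 (SE 0.98, limma adjusted p = 1 for the interaction), so the genotype difference of G6pc was not shown to depend on the diet. The call in OE vs. LE was lost without LE replicate 7, LE replicate 8, OE replicate 20 or OE replicate 21 (limma adjusted p = 0.0604 to 0.0821).

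Fbp1, the enzyme between these steps, ranged from 16.52 to 17.58 over the 24 rats, and its groups overlapped widely. Its averaged genotype difference was −0.13 (SE 0.12, 95% interval −0.38 to 0.12, limma adjusted p = 0.668). The lower end of that interval is closer to 0 than the upper end of the interval of Pck1 or of G6pc. Of the 8 stellate cell markers, 4 moved with genotype in the same rats as Pck1 and G6pc, and their part in both differences was not tested.

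On the side of glucose use, no gene passed the threshold, although 3 had positive averaged differences with intervals above 0. Pfkfb1 had a lowest, median and highest signal of 8.51, 10.01 and 10.55 in LC, 8.19, 9.76 and 11.47 in LE, 9.74, 10.73 and 11 in OC, and 9.53, 10.27 and 11.82 in OE. In OC, 4 of 6 rats were above all LC rats. The averaged difference was 0.77 (SE 0.29, 95% interval 0.18 to 1.36, limma adjusted p = 0.126), and it passed only when LE replicate 11 was left out (0.94, limma adjusted p = 0.0283).

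Pklr, which makes pyruvate in the last step of glycolysis, showed 15.61, 16.59 and 17.21 in LC, 15.31, 16.45 and 17.33 in LE, 16.94, 17.16 and 17.38 in OC, and 16.26, 16.91 and 17.16 in OE. The OC rats thus lay in the upper part of the lean range, and their SD of 0.16 stood against 0.63 in LC and 0.79 in LE. The averaged difference was 0.53 (SE 0.2, 95% interval 0.12 to 0.93, limma adjusted p = 0.122). Pklr is also transcribed in the precursors of red blood cells. The 12 markers of these cells had a summed signal of 19.04 to 20 in lean rats and 19.64 to 20.61 in obese rats, with 8 of 12 higher in obese rats. Their part in the Pklr values was not tested.

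Khk, the first enzyme of fructose breakdown, had a lowest, median and highest signal of 13.58, 14.43 and 14.97 in LC, 14.19, 14.24 and 14.99 in LE, 14.54, 14.84 and 15.18 in OC, and 14.08, 14.67 and 15.02 in OE. Its averaged difference was 0.33 (SE 0.14, 95% interval 0.04 to 0.63, limma adjusted p = 0.194).

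Gckr and Slc2a2 did not pass either. For Gckr the lowest, median and highest signals were 13.54, 14.43 and 15.18 in LC, 14.34, 14.69 and 15.11 in LE, 13.29, 14.2 and 15.2 in OC, and 12.4, 14.29 and 14.71 in OE. Its difference was −0.09 in OC vs. LC (SE 0.36, limma adjusted p = 0.964) and −0.84 in OE vs. LE (SE 0.36, limma adjusted p = 0.302, exact permutation p = 0.0519). Slc2a2, the bidirectional glucose transporter, ranged from 15.48 to 16.89 over all rats, with an averaged difference of −0.06 (SE 0.15, 95% interval −0.37 to 0.24, limma adjusted p = 0.893).

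Within each diet, 0 of the 8 genes passed in OC vs. LC with limma, where 2.59% of all transcripts passed. At an unadjusted p under 0.05 there were 5 of 8 against 12.8% of all transcripts, namely Pklr, Pfkfb1 and Khk as higher and Pck1 and G6pc as lower. The criteria of the study's methods, a fold change over 1.3 with an unadjusted p under 0.05 in the methods' t-test, were met by Pklr, Pfkfb1 and Pck1, and by 8.68% of all transcripts. No gene had groups without overlap in OC vs. LC, as 2.02% of all transcripts did. In OE vs. LE, 2 of 8 passed with limma, where 2.11% of all transcripts passed in either direction and 1.04% as lower, and the same genes, Pck1 and G6pc, met the criteria of the methods, as did 8.04% of all transcripts.

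**Figure D2:**
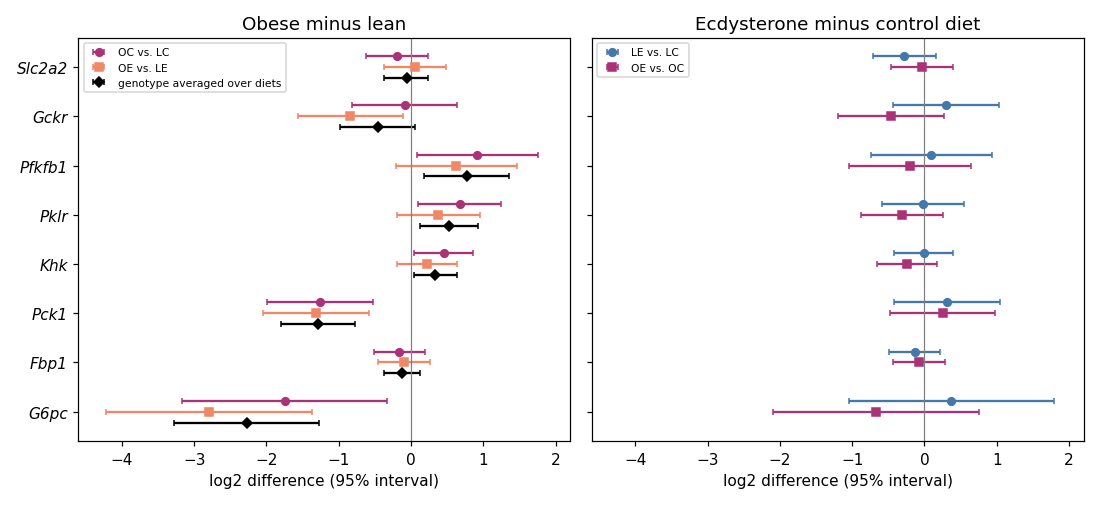
Log2 difference of each of the 8 genes with its 95% interval (horizontal axis), obese minus lean at left and ecdysterone minus control diet at right, one row of markers per gene (vertical axis). The averaged genotype difference is −1.29 for Pck1 and −2.27 for G6pc with intervals below 0, and every interval at right includes 0.

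The second question was whether ecdysterone altered these genes. In LE vs. LC, 0 of the 8 genes passed with limma, where 0% of all transcripts passed. At an unadjusted p under 0.05 there were 0 of 8 against 3.51% of all transcripts, and none met the criteria of the methods, against 1.85%. Differences ran from −0.28 for Slc2a2 to 0.37 for G6pc, and the interval of G6pc, −1.05 to 1.79, was the widest, so a change of over 3-fold up was not excluded for this gene. The interval of Fbp1, −0.49 to 0.22, was the narrowest.

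In OE vs. OC, 0 of the 8 genes passed, where again 0% of all transcripts passed, and at an unadjusted limma p under 0.05 there were 0 of 8 against 5.7% of all transcripts. None met the criteria of the methods, against 3.08% of all transcripts. Pklr had a difference of −0.31 (SE 0.28, limma adjusted p = 0.935), with 3 of 6 OE rats below all OC rats and an exact permutation p of 0.0498. G6pc was at −0.67 (SE 0.69, 95% interval −2.1 to 0.75), Gckr at −0.46 (SE 0.36) and Pck1 at 0.25 (SE 0.36). The ecdysterone comparisons share the OC and LC arrays with the genotype comparison on the control diet. For the interaction of genotype and ecdysterone, 0 of 8 genes passed with limma, where 0% of all transcripts passed, and 0 of 8 had an unadjusted p under 0.05, against 3.93% of all transcripts. The estimates ran from −1.04 for G6pc to 0.24 for Slc2a2.

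To set the 8 genes beside their pathways, 96 other genes of glucose metabolism were read from the same fit. In the averaged genotype comparison 13 rose in obese rats, 6 fell and 77 did not pass. The median log2 difference of the 96 was 0.03, against −0.01 over all transcripts. Of all transcripts, 6.52% passed there in either direction and 2.95% as lower. The counts of each list below stand against the same shares. In OC vs. LC, 8 of the 96 rose and 3 fell, against 2.59% of all transcripts in either direction. In OE vs. LE 4 rose and 2 fell, against 2.11%. None passed in LE vs. LC or OE vs. OC, as for all transcripts.

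Among the enzymes of glycolysis, 4 of 24 rose, 0 fell and the median was 0.08. Pfkl, the liver subunit of phosphofructokinase, rose by 0.65 (SE 0.11, 1.57-fold, limma adjusted p = 0.000197), and Pgk1, phosphoglycerate kinase, by 0.58 (SE 0.14, 1.49-fold, adjusted p = 0.00989 in limma). Ldha, lactate dehydrogenase A, rose by 0.42 and Gapdh, glyceraldehyde 3-phosphate dehydrogenase, by 0.46, the latter with the reservation that near-identical copies of Gapdh exist in the genome.

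Among 16 further genes of gluconeogenesis and its shuttles, 2 rose and 3 fell, and the median was 0. Got1, the cytosolic aspartate aminotransferase, fell by 1.74 on the log2 scale (SE 0.3, 3.34-fold, limma adjusted p = 0.000257). Gpd2, the mitochondrial glycerol 3-phosphate dehydrogenase, fell by 0.9 (SE 0.25, 1.87-fold) and Gk, the kinase that admits glycerol, by 0.61 (SE 0.15, 1.53-fold). Pck2, the mitochondrial counterpart of Pck1, went in the opposite direction to Pck1 and rose by 0.61 (SE 0.12, 1.52-fold, limma adjusted p = 0.000838). The mean signal of Pck2 was 7, not far above the 95th percentile of the chemosensory receptor transcripts at 6.37. Mdh1, the cytosolic malate dehydrogenase, rose by 0.62 (SE 0.14, 1.54-fold). The list therefore held genes called in both directions.

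In fructose, sorbitol and galactose metabolism, 4 of 12 rose and 0 fell, with a median of 0.06. Slc2a5, the fructose transporter, had the greatest difference of these at 1.53 (SE 0.47, 2.89-fold, limma adjusted p = 0.046), but the call was lost in 18 of the 24 fits that left out 1 array. Galk1, the kinase that traps galactose, rose by 0.56, a call lost with a score of circadian clock genes as a covariate (0.44, limma adjusted p = 0.0756). Pgm1, which interconverts glucose phosphates, rose by 0.42. None of 11 other sugar and monocarboxylate transporters passed (median −0.09).

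At the entry of pyruvate into the mitochondrion, 2 of 13 genes rose and 0 fell, with a median of 0.19. They were Dlat, a subunit of the pyruvate dehydrogenase complex (1.15, SE 0.26, 2.21-fold), and Pdk1, a kinase that inactivates this complex (0.83, SE 0.15, 1.78-fold). Of 20 regulators, 1 rose and 3 fell (median −0.11). Srebf1, a transcription factor of lipid synthesis induced by insulin, rose by 0.94 (SE 0.19, 1.92-fold). Srebf1 passed in OC vs. LC (1.24, limma adjusted p = 0.00603) but not in OE vs. LE (0.65, limma adjusted p = 0.279). The study's qPCR found no significant difference of Srebf1 between OC and LC. Nr3c1, the glucocorticoid receptor, fell by 0.95 on the log2 scale (SE 0.13, 1.94-fold, limma adjusted p = 4.52e-06), and Irs1, an adaptor of the insulin receptor, by 0.8 (SE 0.16, 1.74-fold). Irs2, another such adaptor, fell by 1.11 (SE 0.32, 2.15-fold, limma adjusted p = 0.0301), a call lost in 9 of the 24 fits that left out 1 array. Irs2 also had the smallest p of the 96 genes in OE vs. OC, at 1.18 (SE 0.45, limma adjusted p = 0.858). In LE vs. LC this was Pdp2, a phosphatase of pyruvate dehydrogenase, at 0.5 (SE 0.17, limma adjusted p = 1).

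**Figure D3:**
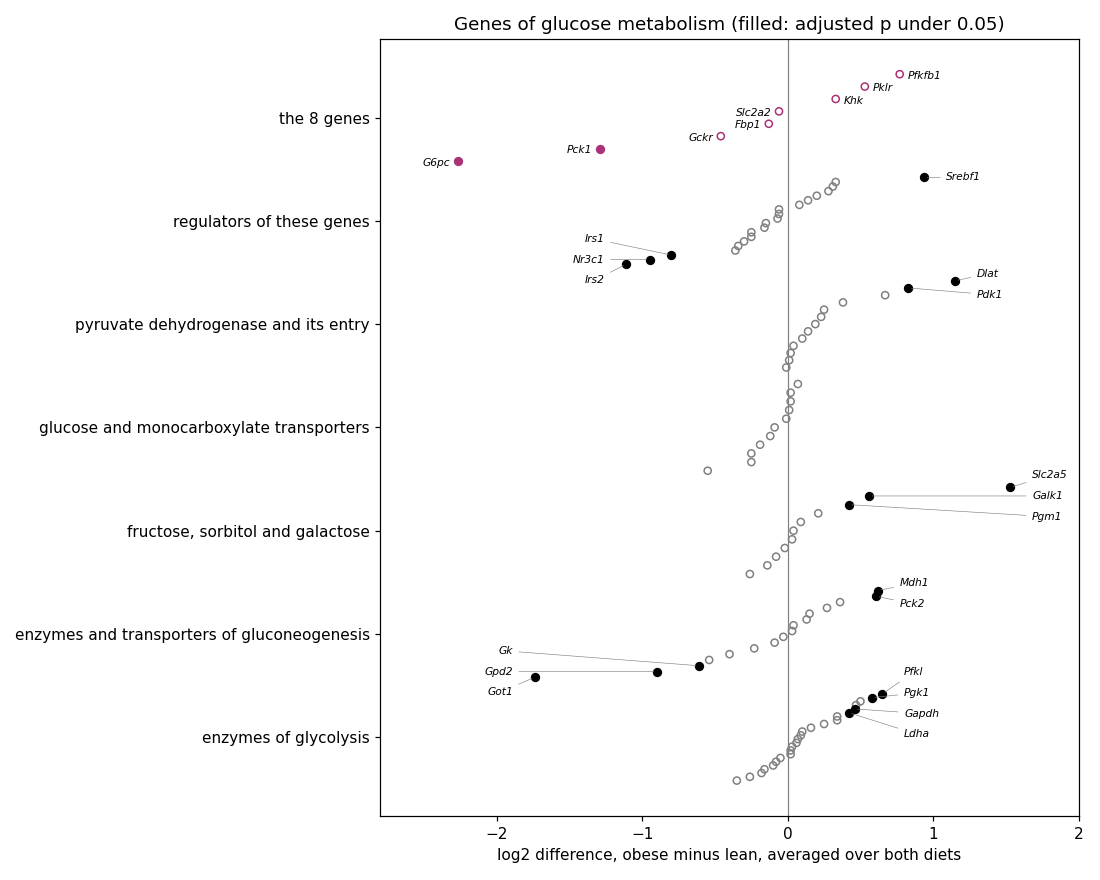
Log2 difference between obese and lean rats averaged over both diets (horizontal axis) for the 8 genes and 95 of the 96 other genes of glucose metabolism, ordered within 6 lists (vertical axis); filled points passed an adjusted p of 0.05 and are named. Got1 at −1.74 and Slc2a5 at 1.53 mark the ends among the listed genes, and the median of the 96 is 0.03.

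The 8 genes also differed in how far rats of the same group lay apart. The SD within groups was 1.42 for G6pc, larger than that of 99.9% of all transcripts, 0.82 for Pfkfb1 (99.3%), 0.71 for Pck1 (98.8%) and Gckr (98.7%), and 0.54 for Pklr (96.3%). It was 0.39 for Slc2a2 (78.3%), 0.37 for Khk (71.4%) and 0.3 for Fbp1 (42%), where the median of all transcripts was 0.32.

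The rats also varied in their signals of circadian clock genes. A clock score was formed for each rat as the mean log2 signal of Arntl, Npas2 and Clock minus that of Dbp, Tef, Nr1d1, Nr1d2, Per1, Per2 and Per3. Its lowest, median and highest values were −2.52, −0.01 and 4.54 in LC, −0.94, 1.88 and 4.25 in LE, −2.1, 0.01 and 1.89 in OC, and −3.04, −0.27 and 2.04 in OE. The time of death of each rat is not given in the sources used here. Whether differences in the score are differences in circadian phase was therefore not tested. Deviations of the 24 rats from their group means were correlated with those of the score, with 100000 permutations within groups and adjustment over the 8 genes. Some rats of neighbouring number had similar scores, such as LE replicates 11 and 12 at 3.88 and 4.25. Others did not, such as LC replicates 3 and 4 at 1.18 and −1.19. The permutations, here and for the pairs of genes below, treated every rat as independent. Where rats resembled their neighbours, the permutation p-values can be too small, and this was not tested.

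Gckr followed the score with Pearson's r = 0.86 and Spearman's rho = 0.87 (permutation p = 1e-05 for both, the smallest that these permutations can give, adjusted p = 4e-05). Its r was 0.94 in LC, 0.91 in LE, 0.97 in OC and 0.93 in OE. Slc2a2 ran the other way with r = −0.89 and rho = −0.87 (permutation p = 1e-05 for both, adjusted p = 4e-05), and its r was −0.92, −0.95, −0.53 and −0.96 in LC, LE, OC and OE. Without the 2 rats farthest from the median score, r was 0.84 for Gckr and −0.86 for Slc2a2. The genes that made up the score were not chosen from the 8. The score was, however, chosen with earlier results of these data known, and its p-values do not account for that choice.

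Pklr had r = −0.53 and rho = −0.5 over the 24 rats (permutation p = 0.0267 and 0.0345, adjusted p = 0.0712 and 0.092), with −0.69 in LC and −0.94 in LE but 0.48 in OC and 0.31 in OE, a difference between genotypes that was not tested. Fbp1 was at r = −0.46 and rho = −0.41 (permutation p = 0.0523 and 0.055, adjusted p = 0.105 and 0.11). The gluconeogenic genes that differed by genotype showed r = 0.02 for Pck1 (rho = 0.22, permutation p = 0.96 and 0.311) and r = −0.17 for G6pc (rho = −0.28, permutation p = 0.401 and 0.17). The groups disagreed for Pck1, with r at −0.46 in LC, 0.78 in LE, 0.31 in OC and 0.43 in OE. Under the alternatives and with 1 array left out, the r of Pck1 over all rats lay between −0.1 and 0.42. For G6pc r was −0.04, −0.14, −0.34 and −0.38 in LC, LE, OC and OE. With the score as a covariate in limma, Gckr in OE vs. LE went from −0.84 to −0.24 (adjusted p = 0.772). In the same comparison Pck1 was at −1.3 and no longer passed (limma adjusted p = 0.0923), while G6pc passed, and the averaged differences of both passed.

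**Figure D4:**
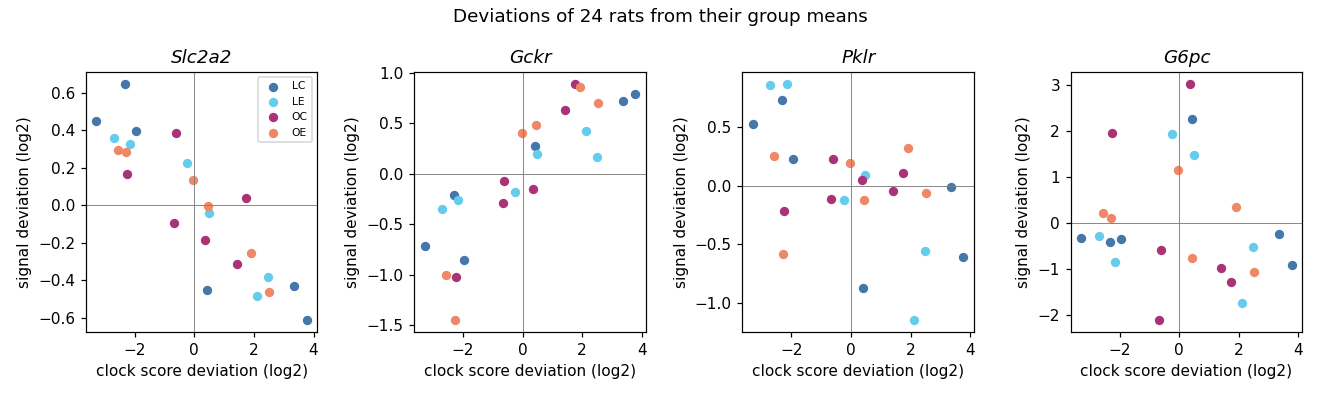
Deviation of the log2 signal from the group mean (vertical axis) against that of the clock score (horizontal axis) for Slc2a2, Gckr, Pklr and G6pc; each point is 1 rat, coloured by group. Slc2a2 descends with r = −0.89 and Gckr ascends with r = 0.86, whereas G6pc shows no such course (r = −0.17).

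Among the 28 pairs of the 8 genes, 3 correlated across rats after adjustment over the pairs. When 1 rat was left out the count lay between 1 (without LC replicate 3) and 5 (without LC replicate 1 or OE replicate 24). Gckr and Slc2a2, the pair tied to the clock score, had r = −0.69 and rho = −0.69 (permutation p = 0.00033 and 0.00034, adjusted p = 0.00924 and 0.00952), negative in all 4 groups, and r was −0.71 without the 2 rats farthest on the x axis. Pklr and Khk, both active in carbohydrate breakdown, had r = 0.68 and rho = 0.64 (permutation p = 0.00087 and 0.00335, adjusted p = 0.0122 and 0.0313), positive in all 4 groups, and r was 0.62 without such rats. Pklr and Slc2a2 had r = 0.68 and rho = 0.69 (permutation p = 0.00266 and 0.00279, adjusted p = 0.0248 and 0.0313), with 0.9 in LC and 0.91 in LE against 0.35 in OC and −0.23 in OE, and with 0.6 without such rats. Gckr with Slc2a2 passed in all 24 fits that left out 1 rat, Pklr with Khk in 23, with the loss without LC replicate 3 (adjusted p = 0.0518), and Pklr with Slc2a2 in 18 (adjusted p at most 0.0609). The latter was lost without LC replicates 3, 4, 5 or 6 and without LE replicates 8 or 11.

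For Pck1 and G6pc, both lower in obese rats, r was −0.26 and rho −0.4 (permutation p = 0.212 and 0.0767, adjusted p = 0.456 and 0.215), and r was below 0 in each of the 4 groups. LC replicate 1, with the lowest Pck1 signal of LC at 15.16, had a G6pc signal of 12.74 in the midst of the group, and OC replicate 13, with the highest G6pc signal of OC at 14.27, had a Pck1 signal of 15.57. Pck1 and Fbp1 had r = 0.65 and rho = 0.54 (permutation p = 0.00794 and 0.0161, adjusted p = 0.0556 and 0.0754), and r was 0.35 without the 2 rats farthest on the x axis.

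**Figure D5:**
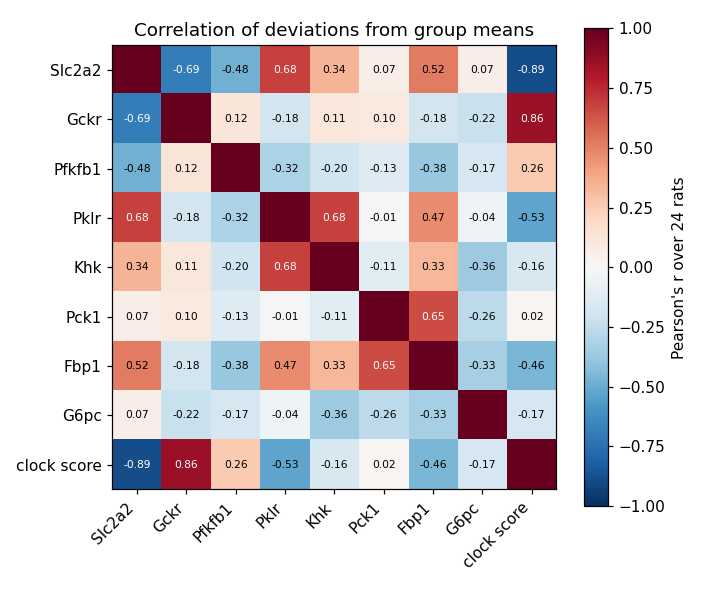
Pearson's r between the 8 genes and the clock score (both axes), computed over the deviations of 24 rats from their group means; red is positive and blue negative. The strongest cells are Slc2a2 (−0.89) and Gckr (0.86) with the clock score, while Pck1 with G6pc is at −0.26.

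The transcripts whose deviations ran most like those of each gene over the 24 rats are given as a description. For Gckr these were Npas2 (r = 0.94), itself part of the clock score, Kynu (0.93) and Clpx (0.92). For Slc2a2 they were Tef (0.92) and Dbp (0.9), both part of the score, and Epm2a (0.87). For Pklr they were the fructose transporter Slc2a5 (0.92), LOC102549542 (0.89), which the deposited table describes as similar to Elovl6, and the fatty acid elongase Elovl6 itself (0.88). Khk was closest to Haao (0.86), Kif1b (0.82) and Tkfc (0.81), the last of which acts in the same fructose pathway, and Fbp1 to Asl (0.85), Ptk7 (0.83) and LOC100911867 (0.82). The nearest transcripts were less close for Pfkfb1, with Adra1b at 0.82, for Pck1, with Hyls1 at 0.78, and for G6pc, with Sult1c3 at 0.78.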

How the data were processed

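Liver RNA of 24 rats was hybridised to Affymetrix Clariom S arrays, 1 per rat. The authors background-corrected, normalised and summarised the probes by SST-RMA in Affymetrix Expression Console 1.4, per the labels and the methods, and deposited log2 signals per array. The deposited table also holds the authors' group means, signed fold changes (a score) and p-values of their comparisons, which were not used. A second deposited table of the same log2 signals differed by at most 0.005.

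Groups were read from the sample titles. The signals were fitted with limma 3.58.1 (lmFit, eBayes) in R 4.3.3 as 4 group means over 23188 transcripts, with Benjamini-Hochberg adjustment; prior and residual degrees of freedom were 8.4 and 20. Two-sided exact permutation tests covered the 924 splits of 6 against 6 rats, so their smallest p is 0.00216. The test scripts were tested on simulated data. Array data carry no read depth, and the number of arrays limits the precision. Replicates are different rats. Fold changes are powers of 2 of log2 differences, which array signals compress at both ends.

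All 8 genes are named. Of the 97 pathway genes, 96 were found in the table, and those that passed in OC vs. LC or in the averaged genotype comparison were named, at most 6 per list, along with the smallest p for ecdysterone and the 3 transcripts most like each gene. Single values of 1 listed gene are not reported here. The genes, lists and clock score were chosen with earlier results of these data known. Alternatives were the methods' t-test, fits of the 2 groups alone, median and quantile scaling, a filter on low signals, array weights, eBayes with trend and robust, use of the second table, the clock score as a covariate and leaving out each array.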

Additional observations from a re-analysis of the deposited data

Results flagged for a closer look

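In 3 of the 32 sets of 6 rats checked (8 genes in 4 groups) a single array lay far from the rest of its group by Dixon's criterion (a gap above 0.625 of the range), a number to be read against the 1 in 20 that chance gives. Pck1 in LC replicate 1 was at 15.16, 2.02 below the next LC rat at 17.18 (0.692 of the range). Pck1 in OE replicate 23 was at 15.14, 0.98 below the next OE rat at 16.12 (0.646 of the range). G6pc in LC replicate 3 was at 15.25, 2.51 above the next LC rat at 12.74 (0.793 of the range). Without LC replicate 1, Pck1 passed in OC vs. LC (−1.67, limma adjusted p = 0.000384), and without OE replicate 23 it did not pass in OE vs. LE (−1.1, limma adjusted p = 0.135).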

How the results depend on the processing

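In the averaged genotype comparison Pck1 and G6pc passed under all 8 alternatives and in all 24 fits that left out 1 array (limma adjusted p at most 0.00682 for Pck1 and 0.0177 for G6pc). Of these alternatives, the mean of all probe sets left the signals of both genes unchanged, since each has 1 probe set. The second table differed by at most 0.005, so it could hardly move them either. The calls within a diet were less stable. In OE vs. LE the 2 calls became 1 with quantile normalisation, with array weights and with the clock score as a covariate (Pck1 was lost each time), 0 with eBayes with trend and robust and with the methods' t-test, and 0 to 1 when 1 array was left out. In OC vs. LC the 0 calls became 1, Pck1, without transcripts below the median signal and with array weights, and 0 to 1 when 1 array was left out (Pck1 without LC replicate 1 or OC replicate 14, G6pc without OC replicate 13). After Benjamini-Hochberg adjustment, the methods' t-test called 1.1% of all transcripts in OC vs. LC, against 2.59% with limma, and 0.578% in OE vs. LE, against 2.11%. The 2 genes correlated with the clock score became 4 with quantile normalisation and 2 to 4 when 1 array was left out (4 without OC replicate 15 or OE replicate 23). The r of Gckr stayed between 0.84 and 0.88 and that of Slc2a2 between −0.91 and −0.87. The 3 correlated pairs became 1 to 5 when 1 array was left out (1 without LC replicate 3, 5 without LC replicate 1 or OE replicate 24). With the clock score as a covariate the averaged genotype calls of Slc2a5, Irs2 and Galk1 were lost (limma adjusted p = 0.16, 0.0784 and 0.0756), and those of Slc2a5 and Irs2 also with eBayes with trend and robust (0.116 and 0.0787). The correlation alternatives, and those for the other pathway genes, were chosen after seeing the data. No called gene value changed sign; of 1867 gene values under an alternative, 45 that were not called did, the largest from a size of 0.37. The cause of these changes was not tested. No paired analysis was possible because the replicate numbers in the titles run from 1 to 24 and no number occurs in more than 1 group. Signals of the 8 genes were above the 95th percentile of the mean signals of chemosensory receptor transcripts on every array, and the spread between rats sets the precision.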
